A study of Mus musculus with 14 samples.

Results

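The germline transcription factors Figla, Nobox, Lhx8, Sohlh1, Sohlh2, Taf4b and Tbpl2 were followed in single mouse oocytes with and without maternal Kdm1a, the gene of a histone lysine demethylase that is also named Lsd1. These 7 genes were taken by symbol from a count table of 24064 genes. A count was found for 6 of them, and 5 passed the filter on low counts and were tested among 9198 genes. Poly(A)-primed cDNA of individual ovulated oocytes, freed of the zona pellucida, had been amplified and sequenced, giving 14 libraries. Of the oocyte names, 4 stood on a pair of libraries each, and summing those gave 10 oocytes. In each pair 1 library title ends in DNA, a suffix the labels do not explain, and the descriptions number both libraries as separate oocytes, so that they are repeats of 1 oocyte is not established.

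The wt/wt control oocytes (n = 4, named wt1, wt3, wt4 and wt5) carried the undeleted gene on the C57BL/6J strain. The other control, oocyte C3 (f/f, n = 1), carried floxed Kdm1a on both chromosomes and no Cre, on a mixed B6;129 background. Mutant oocytes (mko/mko, n = 5, named D1, D2, D3, D4 and D7) came from f/f females with a Cre transgene under the Zp3 promoter, also mixed B6;129. That promoter is active in the growing oocyte, and Cre deletes the first exon of Kdm1a, so the gene was present while the oocyte was formed and before it grew. The floxed allele is shared by C3 and the mutant oocytes, but Cre and the deletion are found in mutant oocytes alone. Because the wt/wt oocytes differ from the mutant oocytes in strain as well as in genotype, strain and deletion cannot be told apart in them. Their library titles also have another form, such as Oo_18_R1, while those of C3 and the mutant oocytes begin with OoC or OoD. What this naming stands for is not stated, and it cannot be told apart from strain. The study states superovulation and an age of several weeks for the f/f and Cre-bearing females from which embryos were taken, without repeating either for oocytes. The labels do not say which oocytes shared a female, so p-values measure the spread between these oocytes.

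An ovarian follicle starts as a small oocyte enclosed by a few flat somatic cells, and a network of transcription factors inside the oocyte is needed to form it and to start growth. SOHLH1 and SOHLH2 are helix-loop-helix factors upstream in that network, LHX8 and NOBOX are homeodomain factors, and FIGLA is a helix-loop-helix factor that pairs with E proteins on E-boxes of the zona pellucida genes Zp1, Zp2 and Zp3. TAF4B and TBPL2 belong to the general transcription machinery and replace or join its common subunits TAF4 and TBP in germ cells.

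To show where such factors could act, the promoters of the members were read from RefSeq (GRCm38.p6, from 250 bases before to 50 bases after the start), which held 6 of the 7. An E-box has the letters CANNTG, which is the same search on both strands, and 72.3% of 32851 promoters held at least 1. The form CAGGTG, or CACCTG on the other strand, was in 20.2% of them. The 5 sites below were chosen because Figla and Nobox were higher in mutant oocytes and because Zp3 and Zar1 are target genes that were higher too. Distances are counted from the RefSeq start. The gene spans given further below are those of GENCODE, which can start elsewhere. By the GENCODE spans the Figla and Zar1 sites lie inside the gene. Capitals mark the E-box in a window of at most 30 bases, read 5′ to 3′ along the gene.
Figla, 173 bases before the start, chr6:86017006-86017035, plus strand: ccacctcgcactCAGGTGcgtcaagtgtgt
Nobox, 137 bases before the start, chr6:43309674-43309703, minus strand: cagcccccacccCAGGTGtgcggtgcctcg
Nobox, 50 bases before the start, chr6:43309587-43309616, minus strand: gcagactccacaCACCTGgccaccccacgg
Zp3, 55 bases before the start, chr5:135980038-135980067, plus strand: gcagagggaattCAGGTGggagggtgggcc
Zar1, 83 bases before the start, chr5:72581150-72581179, minus strand: tcatggcaacagCAGGTGgtagggcttttt
The E-box count was 4 in the Figla promoter, 2 in that of Nobox, 5 in those of Sohlh1 and Tbpl2 and 1 in that of Sohlh2. None was in the Lhx8 promoter. Neither TAATTG, the NOBOX element (8% of promoters), nor TGATTG, a letter string bound by LHX8 (14%), nor TATAAA (13.6%) was in the promoter of any of these 6 members on either strand. The Figla promoter held this form again at 9 and 22 bases after the start, sites that are not shown. The form CAGGTG or CACCTG was also in the promoters of Sohlh1 (2 sites), which had no count, and Tbpl2 (1 site), which was under the filter. Such matches describe letters and not binding.

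The oocytes differed in depth. Total counts were 1375187 to 1892015 in wt/wt oocytes, 6928548 in C3 and 2016701 to 6926076 in mutant oocytes. Levels are given below in CPM, counts per 1000000 over library sizes adjusted by TMM factors, which were 1.30 to 1.36 in wt/wt oocytes, 0.652 in C3 and 0.779 to 0.952 in mutant oocytes. Because the factors differ by group, CPM over plain totals are named where they change a statement. Kdm1a itself had 70, 43, 85 and 27 counts in wt1, wt3, wt4 and wt5, 669 in C3 and 0, 2, 4, 3 and 10 in D1, D2, D3, D4 and D7, so each mutant oocyte was below each control. Of 12 granulosa cell markers, 7 had no count in any oocyte, including the defining genes Foxl2, Amh, Fshr and Inha, and both blood markers were at 0. Has2, of the same list, had 24 counts in all and was under the filter. Its mean was 2.59 ± 2.36 CPM in wt/wt oocytes (SD, n = 4) and 0.122 in mutant oocytes, with 0 in C3. Carry-over of cumulus cells was not tested. The summed granulosa markers, nearly all Cyp19a1 and Gata4, were at 37.6 to 110 CPM in wt/wt oocytes, 96.1 in C3 and 88.6 to 159 in mutant oocytes. Summed oocyte markers, mostly Gdf9, were at 11673 to 27263, 47580 and 40490 to 97383 CPM. Of these 7 markers 3 were called higher, Zp3, Gdf9 and Zar1, where 14.7% of all tested genes were. All 3 are also listed as targets below. Dazl, an RNA-binding protein of germ cells, was instead at a mean of 708 CPM in control and 356 in mutant oocytes (log2 fold change -0.99, adjusted p = 0.0394 with edgeR, under the fold threshold).

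Of the 5 tested members, 3 were called higher in mutant oocytes (Figla, Lhx8 and Nobox), 1 was called lower (Taf4b) and 1 did not pass (Sohlh2). A call needed a log2 fold change of 1 or more in size, together with an adjusted p under 0.05 in edgeR's quasi-likelihood test. The background was broad, since 25.9% of the 9198 tested genes were called, 14.7% higher and 11.2% lower. With plain totals in place of TMM, 965 of 2632 called genes were higher, against 1353 of 2385 with TMM, and 1081 of 2360 were higher once trends with GC content and transcript length were removed. Over all tested genes the median log2 fold change stood at 0.17 with TMM and -0.22 with totals. All 4 called members kept their direction and their call under each of these scalings.

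**Figure D1:**
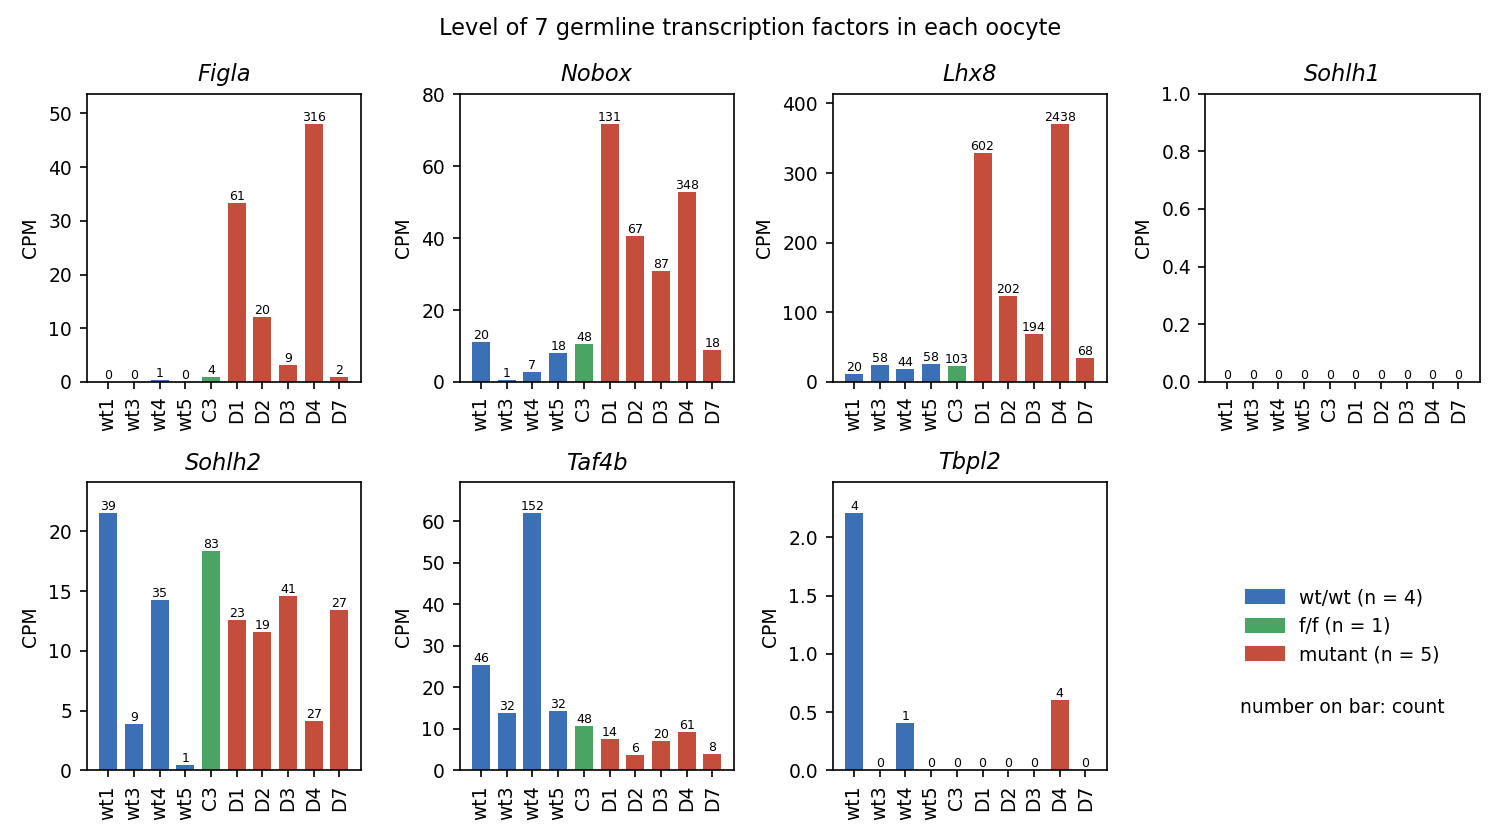
Bars give the level of each of the 7 factors in CPM (vertical axis, own linear scale per panel, starting at 0) in the 10 oocytes, and the number on each bar is its count. Figla, Nobox and Lhx8 were highest in D1 and D4, Taf4b was highest in wt4, and Sohlh1 had no count.

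Figla, which is required for primordial follicles to form, spans chr6:86016171-86020996 on the plus strand of GRCm38. Its counts were 0, 0, 1 and 0 in wt1, wt3, wt4 and wt5, 4 in C3 and 61, 20, 9, 316 and 2 in D1, D2, D3, D4 and D7. In CPM, the level was at most 0.408 in wt/wt oocytes, 0.886 in C3 and 33.4, 12.2, 3.2, 47.9 and 0.995 in the same order of mutant oocytes. Every mutant oocyte was thus above every control, but D7, with 2 counts, cannot be set apart from C3, with 4. Non-overlap with mutant oocytes higher was found for 8.1% of tested genes.

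Pooled over oocytes, Figla had 408 counts in mutant and 5 in control oocytes, a ratio of 73.1 after adjustment for depth (95% interval 31.1 to 226, exact binomial, covering counting error only). The log2 fold change was 5.71 (standard error 1.07, adjusted p = 0.00186 with edgeR). The gene passed the filter on low counts through its mutant oocytes and was removed by the stricter filterByExpr. The fold change depends on the prior count at so few control counts, and it ranged from 5.03 to 6.97 as each oocyte was left out. D4 alone held most of the mutant counts of Figla, and the spread between mutant oocytes was as large as their mean (19.5 ± 20.4 CPM, SD, n = 5).

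Lhx8, a LIM homeodomain factor that oocytes need to pass from the primordial to the primary follicle, spans chr3:154306294-154330659 on the minus strand. Counts were 20, 58, 44 and 58 in wt1, wt3, wt4 and wt5, 103 in C3 and 602, 202, 194, 2438 and 68 in D1, D2, D3, D4 and D7. The corresponding levels were 11, 25.0, 17.9 and 26.0 CPM in wt/wt oocytes, 22.8 in C3 and 329, 123, 69.0, 370 and 33.8 in mutant oocytes. The controls lay close together (20.5 ± 6.14 CPM, SD, n = 5), and the mutant oocytes ran from 1.30 to 14.3 times the level of the highest control.

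The log2 fold change of Lhx8 was 3.17 (standard error 0.58, adjusted p = 0.0016 with edgeR). With plain totals D7 fell to 31.8 CPM, below the highest control at 35.4, so 4 of 5 mutant oocytes were then above every control. Lhx8 stayed called as each oocyte was left out, at 2.76 to 3.46.

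Nobox, a homeodomain factor of the primordial to primary follicle step whose targets include Gdf9 and Pou5f1, spans chr6:43303674-43309554 on the minus strand. Its counts were 20, 1, 7 and 18 in wt1, wt3, wt4 and wt5, 48 in C3 and 131, 67, 87, 348 and 18 in D1, D2, D3, D4 and D7. As CPM these were 11, 0.431, 2.86 and 8.06 in wt/wt oocytes, 10.6 in C3 and 71.6, 40.7, 30.9, 52.8 and 8.95 in mutant oocytes. D7 lay within the control range, and the other 4 mutant oocytes were at least 2.80 times the highest control, or at least 1.84 times with plain totals.

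The log2 fold change of Nobox was 2.62 (standard error 0.66, adjusted p = 0.00939 with edgeR), and it was 2.33 to 2.92 as each oocyte was left out. Figla and Lhx8 shared 1 order of the mutant oocytes, D4, D1, D2, D3 and D7 from high to low. For Nobox D1 and D4 changed places, and D2, D3 and D7 followed again. D4 was also the deepest mutant oocyte, and D1 had their median total. The part of depth in this order was not tested.

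The pairs of libraries with 1 oocyte name allow levels to be set side by side, in CPM of the plain library total with the library of suffix DNA first. For Lhx8 they were 23.9 and 5.57 in C3, 66.7 and 57.0 in D3, 398 and 312 in D4, and 47.7 and 18.3 in D7. Sohlh2 stood at 17.9 and 5.86, 15.1 and 11.7, 5.65 and 2.41, and 17.2 and 8.70 in the same order of oocytes. For both genes the library of suffix DNA was the higher in all 4 pairs.

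Nobox pairs were 9.95 and 3.81 in C3, 26.9 and 26.8 in D3, 49 and 51.3 in D4, and 12.2 and 5.22 in D7. Figla had 0.568 and 0.586 in C3, 4.30 and 2.16 in D3, 47.7 and 43.8 in D4, and 1.01 and 0.870 in D7, where C3, D3 and D7 rest on 5 or fewer counts a library. Taf4b was at 7.39 and 6.45, 7.53 and 5.61, 11 and 6.95, and 2.03 and 5.22 in these oocytes. Pairs were thus close for Figla and Nobox in D4 and far apart for Lhx8, Sohlh2 and Nobox in C3.

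In the count table the column of the C3 library of suffix DNA has the letter and digit of its name swapped, and it was taken for C3 because no other title lacked a column. With C3 from its other library alone, an alternative chosen after seeing the data, the log2 fold changes of mutant against control oocytes were 5.92 for Figla, 3.37 for Lhx8, 2.84 for Nobox, 0.18 for Sohlh2 and -1.96 for Taf4b, with the same 4 members called by edgeR.

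**Figure D2:**
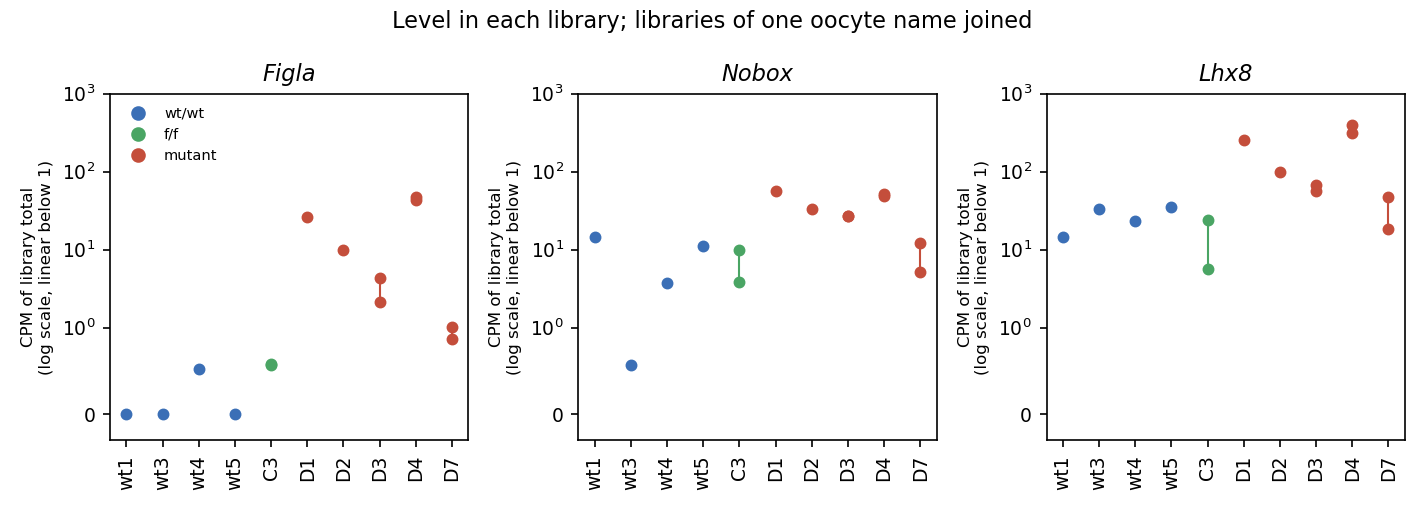
Each point is a library, with CPM of the plain library total on the vertical axis (log scale, linear below 1) and oocytes along the horizontal axis, and a line joins libraries of 1 oocyte name. Both D4 libraries lay at the top for Lhx8, 398 and 312 CPM, and the C3 libraries differed, 23.9 and 5.57 CPM.

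Sohlh2, the partner of SOHLH1 at the head of the network, spans chr3:55182028-55209957 on the plus strand. Counts were 39, 9, 35 and 1 in wt1, wt3, wt4 and wt5, 83 in C3 and 23, 19, 41, 27 and 27 in D1, D2, D3, D4 and D7. The level was 21.5, 3.87, 14.3 and 0.448 CPM in wt/wt oocytes, 18.4 in C3 and 12.6, 11.5, 14.6, 4.10 and 13.4 in mutant oocytes. All mutant oocytes fell inside the control range, which was wide.

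The log2 fold change of Sohlh2 was -0.07 (standard error 0.67, adjusted p = 0.947 with edgeR). It was 1.35 with the replicate block on single libraries (adjusted p = 0.269 with edgeR) and 0.67 with limma voom (adjusted p = 0.459), not called in either. With a standard error of 0.67 a change of about the size of the call threshold in either direction would not have been detectable. Sohlh1 (chr2:25842995-25847248, minus strand) had 0 counts in all 14 libraries, which allows a level of up to 0.225 CPM over the controls and 0.201 over the mutant oocytes at 3 counts. This limit covers counting error only.

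Taf4b, a TFIID subunit of gonads and paralogue of Taf4, spans chr18:14783245-14900359 on the plus strand, and the processed pseudogene AC133172.1 lies inside it on the same strand. Its counts were 46, 32, 152 and 32 in wt1, wt3, wt4 and wt5, 48 in C3 and 14, 6, 20, 61 and 8 in D1, D2, D3, D4 and D7. In CPM the controls stood at 25.4, 13.8, 62.0 and 14.3 (wt/wt) and 10.6 (C3), and the mutant oocytes at 7.65, 3.65, 7.11, 9.26 and 3.98. Each mutant oocyte was below each control, a pattern seen with mutant oocytes lower for 8.09% of tested genes, although D4 and C3 differed little.

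The log2 fold change of Taf4b was -1.96 (standard error 0.55, adjusted p = 0.0165 with edgeR). Without wt4 it was -1.31 (adjusted p = 0.0808), so the call rested on that oocyte. With plain totals the log2 fold change was -2.48, D4 (8.81 CPM) then lay above C3 (6.93), and 4 of 5 mutant oocytes were below every control.

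Taf4 itself, listed under its older symbol Taf4a, was at 417, 412, 474 and 230 CPM in wt1, wt3, wt4 and wt5, at 435 in C3 and at 67.3, 74.8, 207, 102 and 181 in D1, D2, D3, D4 and D7. It fell as well, by 1.64 on the log2 scale (standard error 0.39, adjusted p = 0.00693 with edgeR), and no mutant oocyte reached a control. The log2 ratio of Taf4b to Taf4 within an oocyte was -4.23 ± 0.93 in control (SD, n = 5) and -4.21 ± 0.96 in mutant oocytes (SD, n = 5). The difference of 0.02 gave p = 0.968 in a two-sided exact permutation test, whose smallest p is 0.00794. Between oocytes of a group the ratio spread far more than between groups, from -5.34 in C3 to -2.93 in wt4 among controls and from -5.42 in D7 to -3.09 in D1 among mutant oocytes. This was the only ratio of a member to its paralogue with counts enough to compute.

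**Figure D3:**
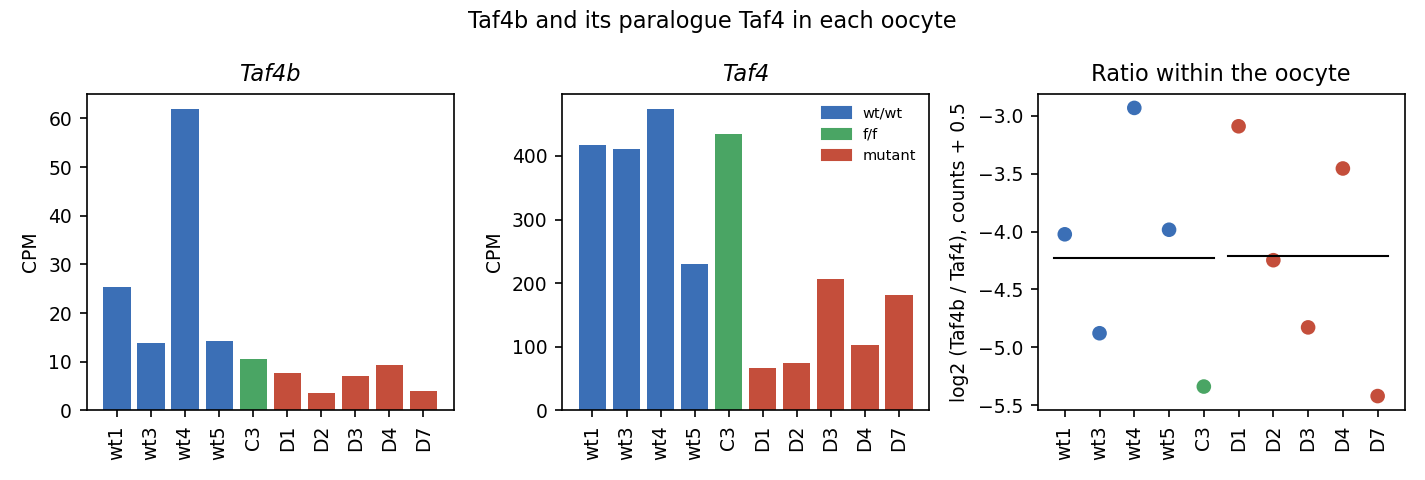
The left and middle panels give the CPM of Taf4b and Taf4 in each oocyte (bars from 0), and the right panel gives the log2 ratio of their counts, with 0.5 added to each, and a line at the mean of control and of mutant oocytes. Both genes were lower in mutant oocytes, while the group means of the ratio were -4.23 and -4.21.

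Tbpl2, the TBP relative that takes the place of TBP in growing oocytes, spans chr2:24071721-24096595 on the minus strand. It had 4 counts in wt1, 1 in wt4, 4 in D4 and 0 in each of the other oocytes, under the filter. The mean was 0.523 CPM in control and 0.121 in mutant oocytes (p = 0.722, two-sided exact permutation test), so no difference was detectable at this depth. The mean level of Tbp was 12.4 ± 6.30 CPM in the controls and 21.4 ± 5.34 CPM in the mutants (SD, n = 5 each), at a log2 fold change of 0.78 that did not pass (adjusted p = 0.194 with edgeR). Reads of Tbp and of Pdcd2, which overlaps it on the opposite strand, may not be told apart, since the strand setting was not stated.

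Levels of different members can be compared per kilobase of transcript. In wt/wt oocytes Lhx8 had the highest mean, 9.62 CPM per kb, with oocytes from 5.32 to 12.5. Taf4b followed at 5.61 (2.68 to 12), then Sohlh2 at 4.24 (0.189 to 9.11) and Nobox at 2.96 (0.227 to 5.83). These neighbours overlapped in range and their order is not fixed by the data. Tbpl2 at 0.474 (0 to 1.60) and Figla at 0.134 (0 to 0.537) came last before Sohlh1, with ranges that overlap each other. The cDNA is primed at the poly(A) tail and covers about 3 kb, so a level per kb understates the long Taf4b transcript. With its length capped at 3 kb Taf4b stood at 9.63 CPM per kb, level with Lhx8, so the first place of Lhx8 holds only without the cap.

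Among mutant oocytes the mean per kb was 89.1 for Lhx8 (16.3 to 178), 25.7 for Figla (1.31 to 63.2) and 21.7 for Nobox (4.73 to 37.8). Sohlh2 was at 4.76 (1.73 to 6.17) and Taf4b at 1.23 (0.708 to 1.80). Figla thus moved from the lowest mean of the 6 detected members in wt/wt oocytes to a mean second to Lhx8. Its range overlapped that of Tbpl2 in wt/wt oocytes and that of Nobox in mutant oocytes.

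The kind of control bears on these values. Against the wt/wt oocytes alone the log2 fold changes were 6.97 for Figla, 3.22 for Lhx8, 2.90 for Nobox, 0.20 for Sohlh2 and -2.13 for Taf4b, with the same 4 members called. Against C3 alone, the only control on the strain of the mutant oocytes, they were 4.41, 3.02, 1.94, -0.72 and -0.72, and no member was called with edgeR (adjusted p = 0.182, 0.155, 0.358, 0.73 and 0.648). A lone control gives a wide error, 1.80 for Figla and 1.14 for Lhx8, and 106 genes in all were called in that comparison. Both sets of values share the mutant oocytes.

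C3 was also set against the wt/wt oocytes in the fit of 3 groups, in which the lone C3 is taken to vary like the other groups. None of the 5 tested members was called there, where 3.49% of tested genes were. The log2 fold changes were 2.57 for Figla (standard error 1.93), 0.95 for Nobox (1.01), 0.19 for Lhx8 (0.93), 0.88 for Sohlh2 (1.07) and -1.44 for Taf4b (0.95). Their unadjusted p were 0.199, 0.363, 0.842, 0.421 and 0.147 with edgeR, and none was under 0.05. For Taf4b this put C3 nearer to the mutant oocytes than to the wt/wt mean, and for Lhx8 nearer to wt/wt. With C3 from the library of matching name alone, the values were 2.76 for Figla, 0.27 for Nobox, -1.03 for Lhx8, 0.07 for Sohlh2 and -1.33 for Taf4b, again none called.

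**Figure D4:**
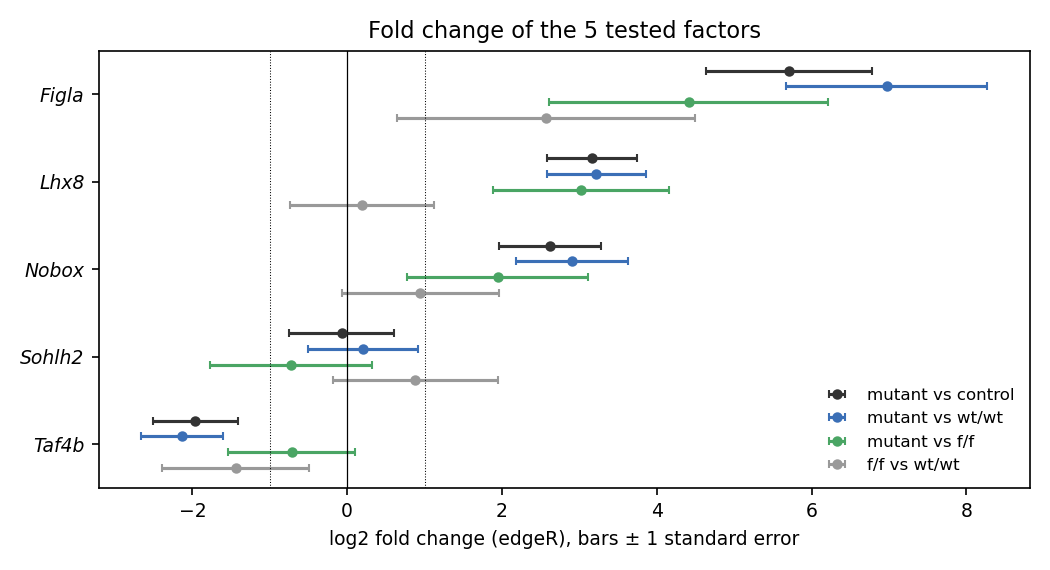
Points are log2 fold changes from edgeR and bars 1 standard error, for the 5 tested factors under 4 contrasts, with dotted lines at the call threshold. Figla, Lhx8 and Nobox were above 0 against either control, from 1.94 to 6.97, and Taf4b below 0, while the bars against C3 were wider.

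Dimer partners and cofactors of the members were listed from E proteins, their Id inhibitors and the LIM cofactors, 12 genes of which 8 were tested. Tcf4 alone was called, higher, which is 1 of 8 where 14.7% of all tested genes were called higher, and none was called lower. The median log2 fold change was 0.25, beside 0.17 over all genes. Tcf4, an E protein, was at 0 in the 4 wt/wt oocytes, at 3.77 CPM in C3 and at 4.37, 14, 3.91, 1.67 and 27.9 in D1, D2, D3, D4 and D7. D4 lay below C3, so the groups overlapped, and the log2 fold change was 3.38 (standard error 1.08, adjusted p = 0.0307 with edgeR). Of 126 counts of Tcf4, 17 were in controls, all of these in C3. It passed the filter on low counts through the mutant oocytes and was removed by filterByExpr. Its fold change rested on C3, being 7.77 without that oocyte and 2.69 to 3.65 without any other. The call was lost without wt1, wt3, wt4, wt5, D2 or D7 in turn (largest adjusted p 0.0918). Tcf3, which encodes the E12 partner of FIGLA, had 37.6 ± 17.6 CPM in the controls and 43.5 ± 13.3 CPM in the mutants (SD, n = 5 each) and did not pass (adjusted p = 0.727 with edgeR).

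Among the listed targets of the members, genes of the egg coat, secreted factors and maternal stores, 9 of 18 tested were called higher and none lower, with a median of 1.45, where 14.7% of all tested genes were called higher and 11.2% lower. This list was written with earlier results of these data known and is not independent evidence of a direction. The 9 were Zp1, Zp2 and Zp3 (egg coat), Gdf9 (oocyte growth factor), and Npm2, Padi6, Dppa3, Zar1 and Rfpl4, products stored by the egg. For Rfpl4 the wt/wt mean was 1173 CPM, but C3, at 11432 CPM, lay inside the mutant range of 6711 to 18676. Bmp15, H1foo, Nlrp5, Mos, Jag1, Oosp1, Kit, Pou5f1 and Gpr149 did not pass. Fgf8 was under the filter.

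Zp2 was at 48.6, 43.9, 35.1 and 143 CPM in wt1, wt3, wt4 and wt5, at 36.5 in C3 and at 3794, 653, 1511, 1877 and 424 in D1, D2, D3, D4 and D7. The lowest mutant oocyte was above the highest control, and the log2 fold change was 4.75 (standard error 0.64, adjusted p = 0.000446 with edgeR). Against the single oocyte C3 its log2 fold change was 5.50, with an adjusted p of 0.0498 in edgeR that lay at the threshold.

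Zp3, the sperm-binding egg coat protein, was at 112, 141, 173 and 443 CPM in wt/wt oocytes, 149 in C3 and 5927, 1366, 530.1, 1456 and 526 in mutant oocytes in the same order. The groups did not overlap (log2 fold change 3.27, standard error 0.66, adjusted p = 0.00275 with edgeR), but with plain totals D3 (459 CPM) and D7 lay below wt5 (605 CPM), and 3 of 5 mutant oocytes were above every control. The Zp3 value was 2.24 without D1 and 3.85 without wt5, the ends of its range as each oocyte was left out. The mutant oocytes carry a transgene with the Zp3 promoter, and its part in the Zp3 count was not tested. Npm2, a chaperone of egg chromatin, was at 11.6, 3.01, 13.5 and 56.4 CPM in wt/wt oocytes, 8.20 in C3 and 633, 167, 145, 938 and 49.2 in mutant oocytes. D7 lay below wt5 here, as it lay within the controls for Nobox (log2 fold change 4.39, standard error 0.84, adjusted p = 0.00211 with edgeR). The Npm2 value was 3.76 without D4 and 5.44 without wt5.

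Targets also served as oocyte markers. Zar1, a maternal factor of the first divisions, was at 1010, 901, 1090 and 2088 CPM in wt/wt oocytes, 2837 in C3 and 8505, 6468, 4226, 4620 and 2955 in mutant oocytes (log2 fold change 1.76, adjusted p = 0.00875 with edgeR). The groups did not overlap, but with plain totals D7 (2781 CPM) lay below wt5 (2850.2 CPM). The Zar1 value was 0.88 and not called once trends with GC content and length were removed. Gdf9 was at 6166, 8160, 7867 and 15446 CPM in wt/wt oocytes, 38234 in C3 and 71843, 51868, 37202, 27147 and 43848 in mutant oocytes. C3 stood inside the range of the mutant oocytes for Gdf9, whose log2 fold change was 1.61 (adjusted p = 0.0356 with edgeR) and only 0.28 against C3. With plain totals C3 (24914 CPM) lay below every mutant oocyte, the lowest at 25832 CPM. It was not called without wt1, wt3, wt4, wt5, D1 or D2 in turn (largest adjusted p 0.0937 with edgeR), nor with C3 from the library of matching name alone (1.44, adjusted p = 0.1003 with edgeR). The order D4, D1, D2, D3 and D7 of Figla and Lhx8 was also that of Npm2, and not that of Zp2, Zp3, Zar1 or Gdf9.

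The general transcription machinery, TBP relatives and subunits of TFIID, TFIIA, TFIIB and related complexes, had 24 tested genes of 27 in the table. Higher calls were made for 2, Gtf2b and Taf9b, and lower calls for 5, Taf1, Taf2, Taf4, Taf5 and Taf13, beside 14.7% higher and 11.2% lower among all tested genes. Without C3 the higher calls numbered 5 and the lower calls were again 5. The median was 0.13. All 5 lower genes encode TFIID subunits, as Taf4b does, and Taf9b, called higher, encodes a paralogue of a TFIID subunit. Of the TFIID subunits that did not pass, Taf7 had a log2 fold change of 1.61 (33.2 against 102 CPM, adjusted p = 0.0513 with edgeR). Its wt/wt mean was 14.3 CPM, but C3, at 109 CPM, lay inside the mutant range of 69.4 to 131. On the log2 scale Taf6 was at 0.53, Taf12 at 0.38 and Taf11 at 0.16, and Taf3, Taf8, Taf9 and Taf10 were between -0.32 and 0.09. TFIID genes thus lay on both sides of 0.

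Taf1, the largest TFIID subunit, was at 31.5, 31.0, 33.0 and 46.5 CPM in wt/wt oocytes, 18.2 in C3 and 7.11, 7.29, 11, 3.34 and 10.9 in D1, D2, D3, D4 and D7. The groups did not overlap (log2 fold change -2.02, standard error 0.45, adjusted p = 0.00499 with edgeR). Taf2 was at 59.1, 72.3, 76.7 and 27.7 CPM in wt/wt oocytes, 51.8 in C3 and 20.8, 15.8, 29.2, 15.2 and 12.9 in mutant oocytes, with D3 above wt5 (log2 fold change -1.61, standard error 0.39, adjusted p = 0.0078 with edgeR). With plain totals every mutant oocyte was below every control for Taf2, at most 25.3 CPM against at least 33.8.

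Gtf2b, which encodes TFIIB, moved the other way, at 276, 223, 207 and 175 CPM in wt/wt oocytes, 267 in C3 and 730.5, 469.8, 1128, 1559 and 639.6 in mutant oocytes. No mutant oocyte reached down to a control (log2 fold change 1.98, standard error 0.37, adjusted p = 0.0019 with edgeR). Taf9b, a paralogue of Taf9, was at 51.4, 70.2, 109 and 21.5 CPM in wt/wt oocytes, 144 in C3 and 193, 130.1, 422, 352 and 273 in mutant oocytes, with D2 below C3 (log2 fold change 1.79, standard error 0.47, adjusted p = 0.0128 with edgeR). With plain totals D2 (106 CPM) was above C3 (94.0 CPM) and below wt4 (141 CPM).

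**Figure D5:**
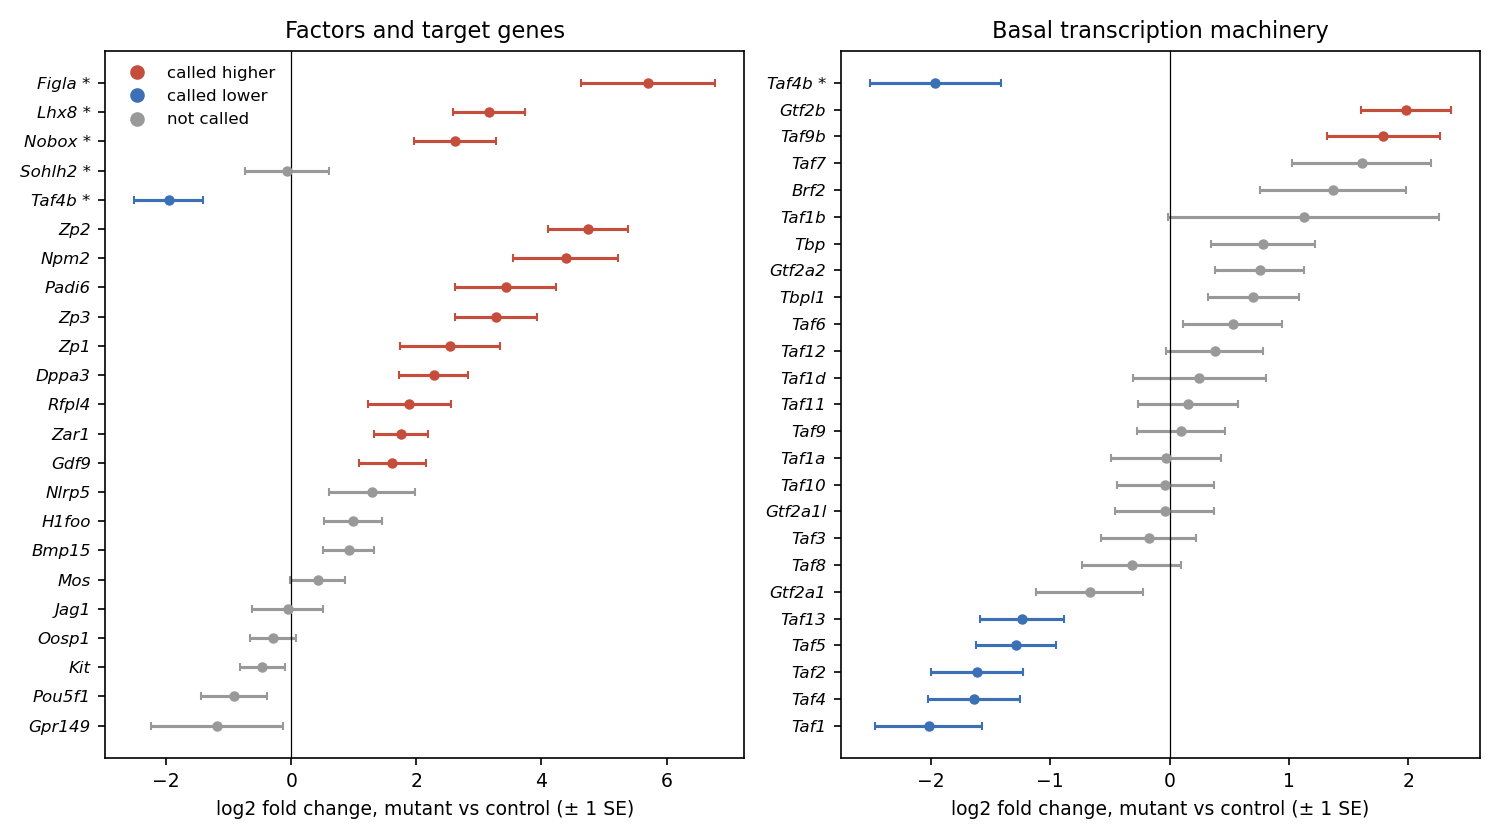
Log2 fold changes of mutant against control oocytes with bars of 1 standard error are drawn for the 5 tested factors (marked with an asterisk) above their listed targets, and for the general machinery below Taf4b. On the left 9 of 18 targets were called higher and none lower, and on the right 2 genes, Gtf2b and Taf9b, were called higher and 5 lower, with a median of 0.13.

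Of 16 other transcription factors of germ cells and early follicles, 8 were tested. Prdm1, a factor of germ cell specification, was called higher and none lower, beside 14.7% higher and 11.2% lower among all tested genes. The median was 0.17, the same as over all genes. Prdm1 was at 8.28, 7.32, 6.93 and 9.40 CPM in wt/wt oocytes, 9.97 in C3 and 27.3, 12.2, 26.7, 28.4 and 20.4 in mutant oocytes. These groups did not overlap, as for 8.1% of tested genes with mutant oocytes higher (log2 fold change 1.45, standard error 0.41, adjusted p = 0.0175 with edgeR). With plain totals it was 1.05 and not called, and D2 (9.92 CPM) lay below wt5 (12.8 CPM). The lower side of this list depended on the setting, since Tfap2c (log2 fold change -1.27, adjusted p = 0.0557 with edgeR) was called lower with plain totals, DESeq2, no filter, 1 library per oocyte, every library as its own sample, thinned counts, GC content and length trends removed, or without D2. Sall4 (-0.85, adjusted p = 0.122 with edgeR) was called lower with plain totals and with every library as its own sample.

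Of the 12 granulosa markers 2 could be tested, and they moved apart. Cyp19a1, which encodes aromatase, was at 8.50 to 62.7 CPM in controls and 79.0 to 147 in mutant oocytes (log2 fold change 1.48, adjusted p = 0.0263 with edgeR), a call lost with plain totals or without wt3 (adjusted p = 0.0589 and 0.0617 with edgeR). With plain totals the lowest mutant oocyte (64.5 CPM) lay below the highest control (69.8 CPM). Gata4, a factor of ovarian somatic cells, was at 28.2 to 65.3 CPM in controls and 2.19 to 12.1 in mutant oocytes (log2 fold change -3.07, adjusted p = 0.00121 with edgeR). Foxl2, Amh, Fshr and Inha were at 0 in each of these oocytes, while Has2 had counts, as given above.

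The profiles most like each tested member were sought by Pearson's r of log2 CPM across the 10 oocytes, which share the split into control and mutant. The values describe this split as much as any likeness within a group. Figla was most like Mrap (0.98) and Slc47a2 (0.98), and Lhx8 was most like Slc47a2 (0.98) and Gyg (0.98). Slc47a2, a transporter gene, had no count in any control and 0.497 to 8.20 CPM in mutant oocytes, while Gyg, glycogenin, went from a mean of 326 to 1501 CPM.

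Nobox was most like Dennd3 (0.97) and Nlrp1a (0.96), both also called higher. Sohlh2 was most like Rcn2 (0.95) and Sec24d (0.93), whose log2 fold changes were 0.02 and 0.01. Taf4b was most like Fkbp3 (0.94) and Smc5 (0.94), neither of them called. Between members, r was 0.97 for Figla and Lhx8, 0.84 for Figla and Nobox and 0.78 for Nobox and Lhx8, and it was -0.50 to -0.55 between Taf4b and these 3.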

How the data were processed

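Single-oocyte cDNA was amplified after poly(A) priming and read as 49-bp single-end reads. The deposited values are raw counts per gene, which the authors made by filtering reads, aligning them to mm10 with TopHat2 2.0.6 and counting unique alignments with HTSeq (version 0.5.3p9 in the submitters' processing notes), and the strand setting is not given in the sources used here. Every column was assigned to a library, 1 of them (C3, suffix DNA) under a name with letter and digit swapped, as the only title left without a column. Libraries sharing an oocyte name (C3, D3, D4, D7) were summed, because the study counts 5 oocytes per group, although the labels number them apart.

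Genes with a total count above the 40% quantile of genes with a count were kept (9198 of 15432). Mutant oocytes were compared with 5 control oocytes in edgeR 4.0.16 (R 4.3.3), with TMM factors, glmQLFit, glmQLFTest and Benjamini-Hochberg adjustment over these genes. C3 and wt/wt oocytes were contrasted in a fit of 3 groups. CPM used adjusted library sizes, and log2 CPM a prior count of 2. Gene positions came from GENCODE M21 (GRCm38) and matched 23673 genes (98.38%). The smallest level seen depends on depth, with 3 counts standing for 0.455 to 1.82 CPM per oocyte.

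The members and gene lists were chosen with earlier results of these data known. Named were all members, Kdm1a, the 3 called genes of smallest p in each direction of each list, genes of the paralogue ratio and the 2 genes of largest Pearson's r with each tested member. Other genes given were named after their values were seen. Alternatives were DESeq2 1.42.0, limma 3.58.1 (voom), other scalings and filters, other uses of the libraries, the wt/wt or f/f control alone, thinned counts, removal of GC content and length trends, and each oocyte left out. Counts of calls per list under each were added after seeing the data. The procedure was tested on simulated data with a common dispersion for all genes. Of 90 genes with a true log2 fold change of 2 in size 36 were called, and 85 of 89 with 3. There were 2 false calls among 8876 genes tested.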

Additional observations from a re-analysis of the deposited data

Results flagged for a closer look

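In each group of 4 or 5 oocytes, the highest and the lowest level of each member were set against the range of the group, and 3 of 14 sets held an oocyte that stood apart, where chance gives about 0.7 for values that vary smoothly. That figure is no fair measure here, since both Sohlh1 sets are all at 0 and cannot be picked out, while a set with 1 oocyte above 0 always is, which accounts for 2 of the 3. For Figla in wt/wt oocytes, wt4 (1 count, 0.408 CPM) stood apart from 3 oocytes at 0, so its gap was the whole range (1). For Tbpl2 in mutant oocytes, D4 (4 counts, 0.607 CPM) stood apart from 4 oocytes at 0, again with a gap of the whole range (1). For Sohlh2 in mutant oocytes, D4 was the low oocyte at 4.10 CPM, with the next at 11.5 and a gap of 0.711 of the range. D4 was also the deepest mutant oocyte, the highest in Figla and Lhx8, and its 2 libraries had 18 and 9 Sohlh2 counts.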

How the results depend on the processing

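Members called numbered 4 in the comparison of mutant with control oocytes and 0 with the f/f oocyte alone as control. Calls were 3 with filterByExpr, which removed Figla, and 3 without wt4 or with the replicate block, where Taf4b was lost (adjusted p = 0.0808 and 0.126 with edgeR). No member changed direction among those called. The number in the descriptions is shared by libraries of both groups. Deviations from the group means correlated at -0.09 to 0.10 between libraries with the same number. For C3 the group mean is that of its own library pair, so these few pairs cannot settle whether a shared number means pairing. The replicate block, on every library as its own sample, called 966 genes and 3 members. On the same libraries without it, 2886 genes and 4 members were called (2385 genes with libraries summed). Genes called were 106 with the f/f oocyte alone and 1607 to 2885 as each oocyte was left out. Between f/f and wt/wt oocytes, no member was called under any alternative, while all genes called went from 321 to 82 with totals, 529 with no filter, 191 with 1 library per oocyte, 120 without wt3 and 174 without wt4. Of the 18 targets 9 were called, against 1 with the f/f oocyte alone, 6 with every library as its own sample, 4 with the replicate block added to that and 5 with GC content and length trends removed, where Pou5f1 was called lower, and 6 to 11 as each oocyte was left out. With C3 from the library of matching name alone, 4 members and 7 targets were called. Machinery genes called lower were 5, also with every library as its own sample, against 2 with the replicate block and 0 with the f/f oocyte alone. The log2 ratio of Taf4b to Taf4 differed by -0.26 to 0.35 as each oocyte was left out. The cause of these shifts was not tested. Depth limits Tbpl2, Sohlh1 and Figla in the controls, which had 9 or fewer counts.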
